A study of Mus musculus with 5 samples.

Results

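Nuclear receptors are transcription factors that bind small lipophilic ligands such as steroids, thyroid hormone, retinoids, oxysterols and fatty acids, or act without a known ligand as orphan receptors. Most bind DNA through a pair of zinc fingers, many of them as heterodimers with a retinoid X receptor (RXR), and exchange corepressors for coactivators when ligand binds. In liver they set much of lipid, bile acid, glucose and xenobiotic metabolism.

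Described here are 37 nuclear receptor genes other than the xenobiotic receptors CAR and PXR, the bile acid receptor FXR and a few further members of the superfamily. They were chosen by name, and their probes were the non-control probes whose RefSeq accession maps to a listed symbol. All 37 were represented, by 49 of the 41174 probes and 37 of the 17016 named genes on the array. The study concerned the cytochrome CYP2B10 in mice given ethanol binges. Liver total RNA came from 5 samples of male C57BL/6N mice, whose age the labels do not give, kept on an ethanol diet for 8 weeks and then given 3 ethanol binges of 5 g per kg. Each was labelled with Cy5 and hybridised against the same purchased RNA in Cy3, named as assorted mouse total RNA but given as liver of the same strain in the labels. There was 1 group and no control diet, so every ratio below sets these livers, called livers 1 to 5, against that reference RNA. No array had its dyes swapped, so a dye effect of a probe does not cancel, and the spread of the reference itself is left out. Nothing in the labels says that the 5 samples are separate animals, so a p-value here measures only how far these samples spread, and that spread may be technical.

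The 5 arrays lay on 5 slides and were scanned on 1 day. Over all probes, the median signal less background ran from 78.4 to 177 for liver and from 75.5 to 151 for the reference. Across genes, which are not independent replicates, any pair of livers had log2 ratios correlated at r of 0.39 to 0.75. Of the hepatocyte markers on the array 6 of 6, albumin among them, were well above background, and their mean log2 ratio was between 0.17 and 0.85 in the 5 livers. The markers did not all agree: 3 passed above the reference, albumin at 1.15 among them, while Tat was at -0.56 and did not pass. Precision is limited by the number of arrays.

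Which of the receptors were detected in liver was read from the scanner software's call of a spot well above its background in Cy5. By that call on at least 3 arrays, 32 of the 37 genes (86.5%) were detected, against 89.1% of all named genes on the array. It held on all 5 arrays for 31 of them, all but Nr4a2, which reached it on 3. Nr2e3, a photoreceptor receptor, Nr2f1 (COUP-TFI), the inducible receptor Nr4a3 and the progesterone receptor Pgr were not well above background in any liver, and Nr2e1, a receptor of neural stem cells, was so in liver 5 alone. The background-subtracted liver signal of these 5 ran from -12.0 for Nr2f1 to 20.8 for Nr2e1. Against a stricter limit, the 99th percentile of the 153 negative control spots of the same array, 29 of 37 genes were above it in all 5 livers, beside 76.4% of named genes. Nr4a2, Nr6a1 and Rorb then dropped out. That limit was 9.15, 19.7, 96.6, 18.5 and 19.6 in livers 1 to 5, so it was highest in liver 3.

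The detection call did not separate liver genes from genes of other organs. Of 25 markers of brain, testis, kidney, muscle, fat and steroid-producing glands on the array, 23 were well above background in at least 3 livers and 19 lay above the negative control limit in all 5. Detection of receptors best known from other tissues, such as Nr5a1 (SF-1) of adrenal and gonad with a liver signal between 47.1 and 117, Esr2 (estrogen receptor beta) between 24.5 and 124, Esrrb between 60.4 and 203 and the adrenal and gonadal repressor Nr0b1 (DAX-1) between 39.2 and 128, is therefore no evidence of a liver function. Brightness depends on the probe, so signals of different genes are not compared with each other.

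**Figure D1:**
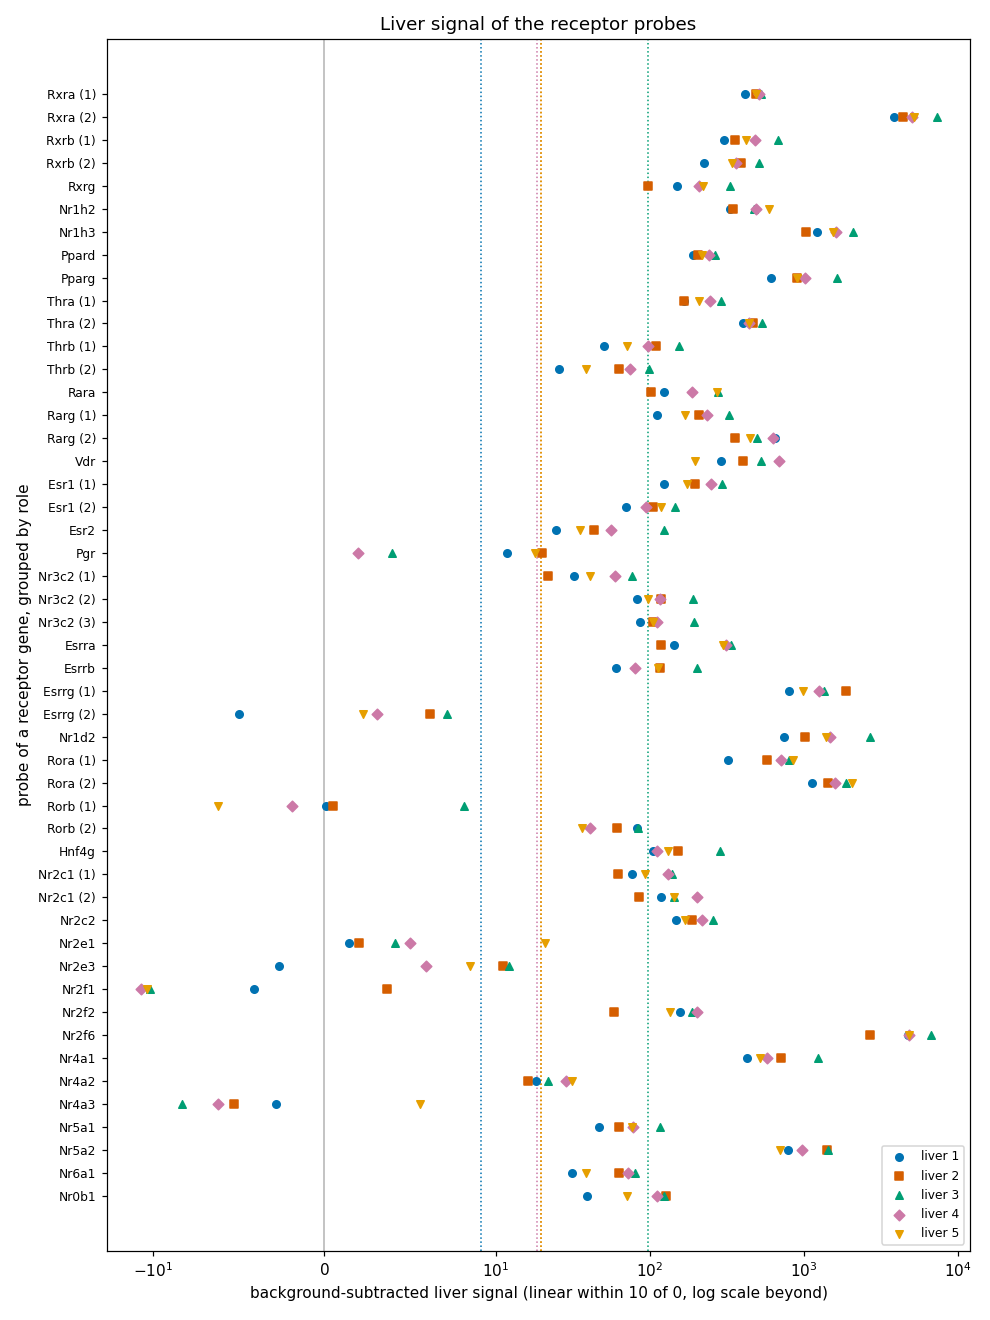
Background-subtracted signal in the liver channel for each of the 49 receptor probes, grouped by role, with 1 point per liver; numbers in brackets tell probes of the same gene apart, and dotted lines in the colour of each liver mark the 99th percentile of its negative control spots. Probes of Nr2e3, Nr2f1 and Nr4a3, and the dim probes of Esrrg and Rorb, lie near 0, while the probe of Nr2f6 is at 2691 or above in every liver.

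The sequences just upstream of a few members are given to show the promoters behind the values that follow, since the array files hold no probe sequence. RefSeq windows (GRCm38.p6) matched 34 of the 37 genes, with 54 start sites. In the 250 bases before each start, the GC box GGGCGG, on either strand, was found in 46.3% of these windows and in 32.7% of all 32851 windows. The core hexamer bound by nuclear receptors, AGGTCA, on either strand, was found in 18.5% of them and in 14% of all. Nr4a1 and Nr0b1 are shown because both stood above the reference, Esrra and Nr2f6 because both were lowest in liver 2, and Nr1d2 because it holds both motifs; each has 1 window. Capitals mark both motifs and their reverse complements, and a match is a description of these letters alone. The windows lie on the plus strand at chr15:101266596-101266845 for Nr4a1 and at chrX:86191525-86191774 for Nr0b1, and on the minus strand at chr19:6921809-6922058 for Esrra, at chr8:71381953-71382202 for Nr2f6 and at chr14:18239107-18239356 for Nr1d2.
Nr4a1: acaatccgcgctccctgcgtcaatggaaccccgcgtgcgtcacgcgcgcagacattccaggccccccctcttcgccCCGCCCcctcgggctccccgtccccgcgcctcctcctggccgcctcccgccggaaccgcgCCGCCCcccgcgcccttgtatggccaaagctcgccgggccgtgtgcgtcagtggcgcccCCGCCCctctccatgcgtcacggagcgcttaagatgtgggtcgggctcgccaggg
Nr0b1: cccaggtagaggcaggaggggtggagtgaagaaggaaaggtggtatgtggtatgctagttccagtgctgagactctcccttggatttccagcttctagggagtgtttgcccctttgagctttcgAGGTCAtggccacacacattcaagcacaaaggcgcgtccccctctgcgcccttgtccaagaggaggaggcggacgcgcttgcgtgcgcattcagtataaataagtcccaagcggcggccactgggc
Esrra: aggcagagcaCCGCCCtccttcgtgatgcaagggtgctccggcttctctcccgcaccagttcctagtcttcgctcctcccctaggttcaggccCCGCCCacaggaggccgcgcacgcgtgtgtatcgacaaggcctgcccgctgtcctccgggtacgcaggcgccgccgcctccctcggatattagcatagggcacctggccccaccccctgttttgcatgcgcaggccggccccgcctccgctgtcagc
Nr2f6: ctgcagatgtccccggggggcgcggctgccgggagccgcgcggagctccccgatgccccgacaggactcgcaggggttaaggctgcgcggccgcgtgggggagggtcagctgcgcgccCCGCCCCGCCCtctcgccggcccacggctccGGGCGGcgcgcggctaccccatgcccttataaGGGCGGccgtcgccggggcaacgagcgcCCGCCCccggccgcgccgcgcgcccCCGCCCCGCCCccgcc
Nr1d2: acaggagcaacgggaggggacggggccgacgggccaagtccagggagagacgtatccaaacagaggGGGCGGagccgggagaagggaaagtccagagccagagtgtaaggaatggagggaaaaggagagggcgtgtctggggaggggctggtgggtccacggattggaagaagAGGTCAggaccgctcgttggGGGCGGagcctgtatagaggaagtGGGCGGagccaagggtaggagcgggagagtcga
Nr4a1 held 3 GC boxes and 0 AGGTCA hexamers, Esrra 2 and 0, Nr2f6 7 and 0, Nr1d2 3 and 1, and Nr0b1 0 and 1.

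The 32 detected genes were tested for a difference from the reference RNA. With calls that needed a mean ratio of 2-fold or more and a limma adjusted p (Benjamini-Hochberg) below 0.05, 0 were higher and 0 lower, where 0.865% of the 14917 genes tested were called higher and 0.416% lower. With no minimum ratio, 5 were above the reference (Esrrg, Nr4a1, Nr0b1, Rarg and Hnf4g) and 6 below it (Thra, Esrra, Rxrb, Rora, Ppard and Nr4a2). These 11 are 34.4% of the members tested, beside 26.9% of all genes tested (14.2% above and 12.8% below). Their mean log2 ratios lay between -0.55 and 0.60. The median over the 32 members was -0.09 and over all genes -0.02. The members' median SD over livers, 0.18, matched that of all genes, also 0.18. Without liver 1 or liver 5, 3 members in place of 5 stood above the reference. Of these 11, 6 passed in each of the 14 alternative fits, namely Esrrg, Nr4a1, Nr0b1, Thra, Rxrb and Ppard. In bulk RNA, fewer cells of a type and less RNA per cell cannot be told apart.

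**Figure D2:**
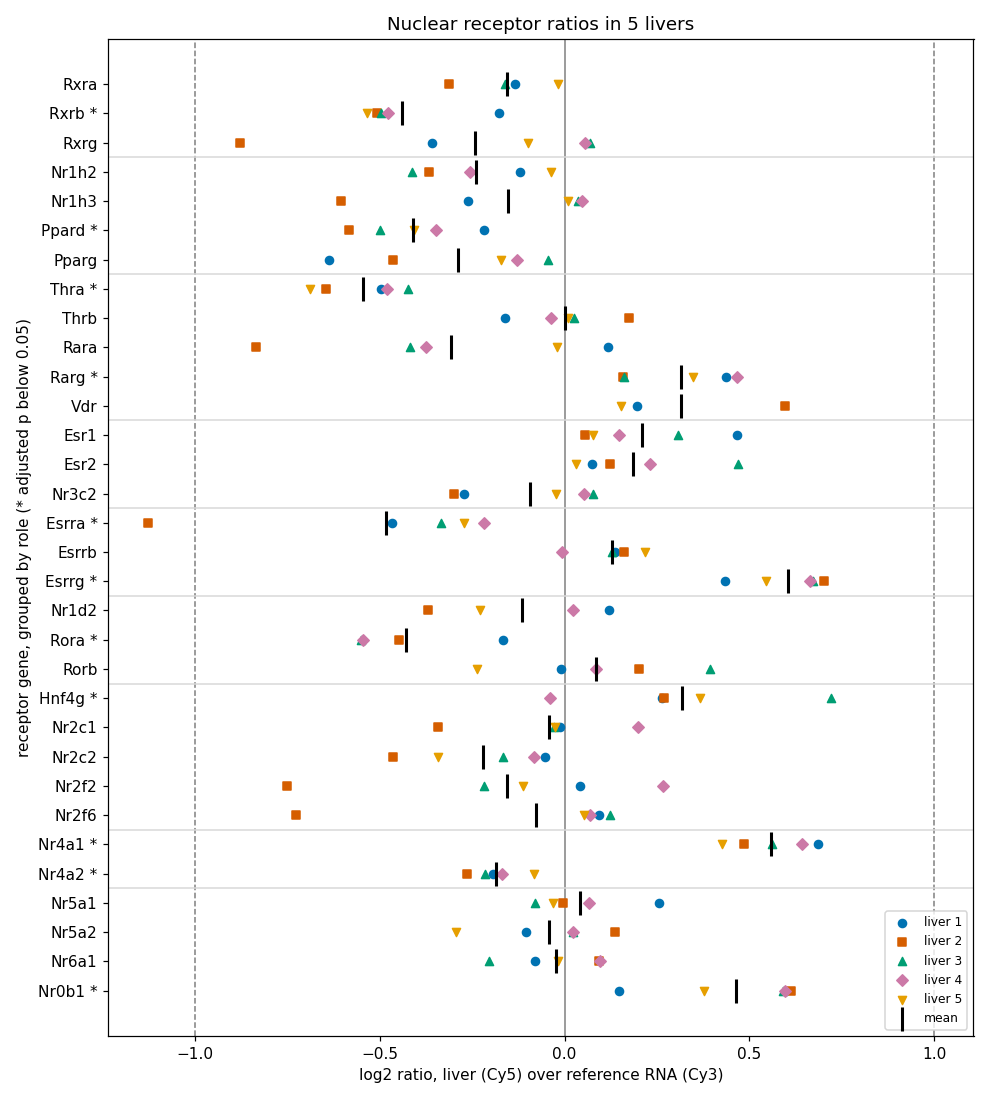
Log2 ratio of liver over reference RNA for the 32 tested receptors, grouped by role, with 1 point per liver and a bar at the mean; dashed lines mark 2-fold, and an asterisk marks an adjusted p below 0.05. All means lie between -0.55 and 0.60, and the point farthest from 0 is Esrra in liver 2, at -1.13.

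Among the RXRs, the shared dimer partners, Rxrb was below the reference. Its log2 ratios were -0.18, -0.51, -0.50, -0.48 and -0.54 in livers 1 to 5, a mean of -0.44 ± 0.15 (SD, n = 5) or 1.36-fold lower (limma adjusted p = 0.00646). Livers 2 to 5 lay close together and liver 1 nearer to 0. Another tested probe of Rxrb stood at -0.0049 ± 0.17 (SD, n = 5), with an adjusted p of 0.971 in a fit of every tested probe, so this difference was seen by 1 of its 2 probes. Rxra, the main hepatic RXR, was at -0.16 ± 0.12 (SD, n = 4) and Rxrg at -0.24 ± 0.40 (SD, n = 5), and neither passed (adjusted p = 0.192 and 0.213). The log2 ratios of Rxrg were -0.36, -0.88, 0.07, 0.05 and -0.10 in livers 1 to 5, with liver 2 the lowest.

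Of the lipid sensors, Ppard, the fatty acid receptor PPAR delta, was below the reference in 5 of 5 livers. Its log2 ratios were -0.22, -0.58, -0.50, -0.35 and -0.41, a mean of -0.41 ± 0.14 (SD, n = 5) or 1.33-fold lower (limma adjusted p = 0.00778). Pparg, a receptor that promotes fat storage, stood below 0 in each liver as well, at -0.64, -0.46, -0.04, -0.13 and -0.17, but did not pass (mean -0.29 ± 0.25, adjusted p = 0.0618). Pparg did pass with the scanner's processed signals (adjusted p = 0.0417), the deposited ratios (0.0422) and median centring (0.0237). The oxysterol receptors Nr1h2 (LXR beta) at -0.24 ± 0.16 and Nr1h3 (LXR alpha) at -0.15 ± 0.28 did not pass either (n = 5 each, adjusted p = 0.0621 and 0.307). Nr1h3 was lowest in liver 2, at -0.60, and between -0.26 and 0.05 in the others.

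Of the hormone and vitamin receptors that pair with RXR, Thra, thyroid hormone receptor alpha, had the lowest mean of all members. Its log2 ratios were -0.50, -0.65, -0.42, -0.48 and -0.69, a mean of -0.55 ± 0.11 (SD, n = 5) or 1.46-fold lower (limma adjusted p = 0.00227). All 5 livers fell in that narrow band, and the other probe of Thra stood at -0.35 ± 0.20 and passed too when every tested probe was fitted (adjusted p = 0.0217). Thrb, the receptor form that carries most of the thyroid hormone response in hepatocytes, was at 0.00 ± 0.12 (adjusted p = 0.984) and its other probe at -0.06. Whether Thra and Thrb differed from each other was not tested.

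Rarg, retinoic acid receptor gamma, was above the reference at 0.44, 0.16, 0.16, 0.47 and 0.35, a mean of 0.31 ± 0.15 (SD, n = 5) or 1.24-fold (limma adjusted p = 0.0224). Its other probe stood at 0.40 ± 0.11 and also passed in the fit of every tested probe (adjusted p = 0.00501). The call of Rarg was lost without liver 1, 4 or 5 (adjusted p = 0.0680, 0.0888 and 0.0591), with the scanner's processed signals (0.0652), with the deposited ratios (0.0637) and with median centring (0.199). Rara, retinoic acid receptor alpha, was at -0.31 ± 0.37 and did not pass (adjusted p = 0.112), with -0.84 in liver 2 and 0.12 in liver 1. The vitamin D receptor Vdr had usable spots in 3 livers, at 0.20, 0.60 and 0.15 in livers 1, 2 and 5 (adjusted p = 0.104). Its spots in livers 3 and 4 were left out as outliers.

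None of the steroid receptors tested passed with the brightest probe. The estrogen receptor Esr1, the main form in liver, was at 0.47, 0.06, 0.31, 0.15 and 0.08, above 0 in 5 of 5 livers with a mean of 0.21 ± 0.17 (limma adjusted p = 0.0928). A dimmer probe of Esr1 was at 0.28 ± 0.06 and passed when every tested probe was fitted (adjusted p = 0.0118), and with its probes averaged Esr1 passed as well (adjusted p = 0.0242). Esr2 was at 0.19 ± 0.18 (adjusted p = 0.0816). The mineralocorticoid receptor Nr3c2 had 3 tested probes that disagreed: the brightest was at -0.09 ± 0.18, another at -0.17 ± 0.20, and the third at 0.36 ± 0.13, above 0 in 5 of 5 livers (adjusted p = 0.00726 in the fit of every tested probe).

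The estrogen-related receptors, orphans that drive mitochondrial and oxidative genes together with PGC-1 coactivators, split in direction. Esrrg had the highest mean of all members, with log2 ratios of 0.44, 0.70, 0.67, 0.66 and 0.55, a mean of 0.60 ± 0.11 (SD, n = 5) or 1.52-fold (limma adjusted p = 0.00152). Its liver signal was 801, 1871, 1356, 1245 and 986 in livers 1 to 5 and its reference signal 576, 1167, 684, 964 and 938. The liver signal was thus the brighter of the pair in every array before any normalization. Over all probes, the median signal was also brighter in liver on the arrays of livers 1 to 3 (177 against 121 for liver 3). It was dimmer on those of livers 4 and 5 (111 against 151 for liver 5). A further Esrrg probe was not well above background in either channel on any array, with a liver signal between -4.97 and 7.17, so Esrrg rests on 1 probe. Esrra, estrogen-related receptor alpha, was below the reference at -0.47, -1.13, -0.34, -0.22 and -0.27, a mean of -0.48 ± 0.37 (SD, n = 5) or 1.40-fold lower (adjusted p = 0.0272). Liver 2 stood well below the other livers. Without liver 2 its mean was -0.32, and without liver 1 the call was lost (adjusted p = 0.0544). Esrrb was at 0.13 ± 0.08 and did not pass (adjusted p = 0.157).

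Among the receptors of the circadian clock, the activator Rora was below the reference. Its usable log2 ratios were -0.17, -0.45, -0.55 and -0.55 in livers 1 to 4, a mean of -0.43 ± 0.18 (SD, n = 4) or 1.35-fold lower (limma adjusted p = 0.0154), and its call was lost without liver 3 or 4 (adjusted p = 0.0562 and 0.0714). The other Rora probe had a usable spot in liver 5, and its values of -0.26, -0.44, -0.53, -0.51 and -0.19 gave a mean of -0.39 that passed in the fit of every tested probe (adjusted p = 0.00954). Livers 1 and 5 were the nearest to 0 there. Nr1d2, the repressor REV-ERB beta, was at 0.12, -0.37, 0.02 and -0.23 in livers 1, 2, 4 and 5 and did not pass (adjusted p = 0.442). Rorb was at 0.09 ± 0.23 (adjusted p = 0.489), and its other probe was not well above background on any array.

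Of the NR4A receptors, immediate early genes that act without a ligand, Nr4a1 (NUR77) was above the reference. Its log2 ratios were 0.69, 0.48, 0.56, 0.64 and 0.43, a mean of 0.56 ± 0.11 (SD, n = 5) or 1.47-fold (limma adjusted p = 0.00208). Its liver signal was 425, 708, 1233, 571 and 518 against 223, 439, 661, 454 and 499 in the reference, brighter in liver on every array. The median over all probes was brighter in liver on the arrays of livers 1 to 3 only. Nr4a2 (NURR1) was at -0.19, -0.26, -0.22, -0.17 and -0.08, a mean of -0.19 ± 0.07 (adjusted p = 0.0260), but with a liver signal of only 16.1 to 31.2 and a detection call on 3 arrays. Its call was lost without liver 2 or 3 (adjusted p = 0.0726 and 0.0677), with median centring (0.219) and without trend and robust prior (0.0578). Without liver 1, 4 or 5 Nr4a2 no longer met the detection filter and was not tested. Nr4a3 was not well above background.

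In the group of hepatocyte nuclear factor 4, testicular and COUP receptors, 1 of the 5 tested members passed. Hnf4g, the less abundant HNF4 form in liver, was at 0.26, 0.27, 0.72, -0.04 and 0.37, a mean of 0.32 ± 0.27 (SD, n = 5) or 1.25-fold (limma adjusted p = 0.0489). It was above 0 in 4 of 5 livers and highest in liver 3, and its call was lost without liver 1, 2, 3 or 5 (adjusted p = 0.0785, 0.0910, 0.131 and 0.113), under the filter on both channels (0.050002) and without trend and robust prior (0.0557). Nr2c1 at -0.04, Nr2c2 at -0.22, Nr2f2 (COUP-TFII) at -0.16 and Nr2f6 (EAR2) at -0.08 did not pass (adjusted p between 0.0838 and 0.734). Nr2f2 had the widest range of the members, 1.02, from -0.75 in liver 2 to 0.27 in liver 4.

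Of the NR5, NR6 and NR0 receptors, Nr0b1 was above the reference. Its log2 ratios were 0.15, 0.61, 0.59, 0.60 and 0.38, a mean of 0.46 ± 0.20 (SD, n = 5) or 1.38-fold (limma adjusted p = 0.00496). Livers 2, 3 and 4 were alike and liver 1 nearest to 0. Its mean was 1.02 from the scanner's processed signals and from the deposited ratios, past 2-fold, which made it the 1 member called higher there. The reference signal of Nr0b1 was dim, at 28.1, 48.8, 26.7, 49.1 and 50.8, and well above background on 4 arrays. On the array of liver 3 it lay below the 99th percentile of the negative control spots in that channel, 83.1. Nr5a2 (LRH-1), a hepatic regulator of bile acid and cholesterol genes, was at -0.11, 0.14, 0.02, 0.02 and -0.29 with a mean of -0.04 ± 0.16 (adjusted p = 0.724). Nr5a1 at 0.04 and Nr6a1 at -0.02 did not pass (adjusted p = 0.680 and 0.809).

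The 11 members with more than 1 probe on the array allowed a check within genes. For 9 of them more than 1 probe was tested, and for 7 of these 9 all other probes lay on the same side of 0 as the brightest. The exceptions were Nr3c2 and Thrb, and in Thrb both means were within 0.06 of 0. Among tested probes, the widest gaps from the brightest were 0.45 in Nr3c2 and 0.43 in Rxrb.

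**Figure D3:**
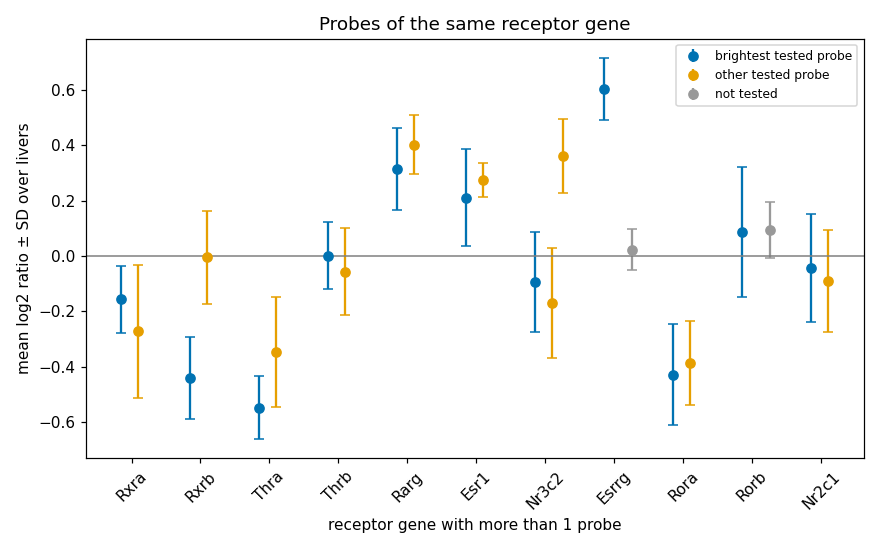
Mean log2 ratio of liver over reference with its SD over livers for every probe of the 11 receptors that have more than 1, in blue for the brightest tested probe, orange for other tested probes and grey for probes not tested. The probes of Rora, Rarg, Thra and Esr1 fall on the same side of 0, while those of Nr3c2 and Rxrb lie up to 0.45 and 0.43 from the brightest tested probe.

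How the members varied between livers was the other measurement. Liver 2 was the lowest of the 5 for 13 of the 28 members with values in all livers (46.4%), beside 27.7% of the 13705 genes with 5 values. These 13 were Esr1, Esrra, Nr1h3, Nr2c1, Nr2c2, Nr2f2, Nr2f6, Nr3c2, Nr4a2, Ppard, Rara, Rarg and Rxrg. Some ranks were close, as for Rarg, at 0.157 in liver 2 and 0.160 in liver 3. Another tested probe was lowest in liver 4 for Esr1 and in liver 5 for Rarg and Nr3c2. The other probe of Nr2c1 and a further probe of Nr3c2 were again lowest in liver 2. The median log2 ratio of the members was -0.03, -0.31, 0.00, 0.04 and -0.02 in livers 1 to 5, and that of all genes was between -0.02 and 0.00 in every liver. The share of members lowest in liver 2 was 53.6% in Agilent's processed signals (29.8% of all genes), 35.7% with scaling between arrays (23.4%) and 28.6% with median centring (17.4%).

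The members farthest below their own mean in liver 2 were Nr2f6, Esrra, Rxrg, Nr2f2 and Rara. For Nr2f6 the log2 ratios were 0.09, -0.73, 0.12, 0.07 and 0.05, so that 4 livers were nearly equal and liver 2 stood apart. Its liver signal was 4701, 2691, 6642, 4780 and 4820 while the reference signal ran from 4406 to 6481, with 4594 on the array of liver 2. Nr2f2 was at 0.04, -0.75, -0.22, 0.27 and -0.11, and Rara at 0.12, -0.84, -0.42, -0.38 and -0.02. Thrb, Nr5a2, Nr0b1 and Esrrg went the other way and were highest in liver 2.

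In the test of each gene's variance against that of genes of like brightness, 0 of the 24 members in it passed, and 0 had an unadjusted p below 0.05. That test called 0% of 12014 genes by limma adjusted p, with 690 (5.74%) at an unadjusted p below 0.05. The prior and its uncertainty were fitted to the variances of these same genes, so the test could hardly call any gene. Its 0 therefore does not show that the livers were alike. With the prior variance taken as known, a setting added after seeing the data, 1211 of the 12014 genes passed. Among them were 3 of the 24 members, a share near that of all genes: Nr2f2 (adjusted p = 0.0381), Rxrg (0.0407) and Nr2f6 (0.0492). Several marker lists, of hepatocytes, of other cells and of other organs, had their highest mean in liver 2. Hepatocyte markers were at 0.85 there, and at 0.82, 0.17, 0.39 and 0.72 in livers 1, 3, 4 and 5. Kupffer cell, bile duct and fat markers were highest there too, while stellate cell markers were lowest there, at -0.28. Neutrophil markers, of which 3 of 5 were tested, had a mean log2 ratio of 0.92 in liver 2 and between -0.32 and 0.30 in the others, and the 5 lymphocyte markers had 0.63 there and between -0.25 and 0.09 elsewhere. Markers of muscle were at 0.57 in liver 2, of gonad and adrenal at 0.42, of brain at 0.38 and of testis at 0.29, where the other livers reached at most 0.34, 0.17, 0.21 and 0.15. Few genes carried some of these means in liver 2. Of 3 tested muscle markers, Tnnt3 was at 1.73, Myh4 at 0.23 and Acta1 at -0.25. Of 4 testis markers, Prm1 was at 1.17 and the others between -0.12 and 0.08. Gonad and adrenal had 2 tested genes, Cyp11a1 at 0.17 and Fshr at 0.67. The brain marker Mbp at -0.28 and the lymphocyte marker Ms4a1 at -0.43 lay below 0. Their part in the receptors' values was not tested.

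**Figure D4:**
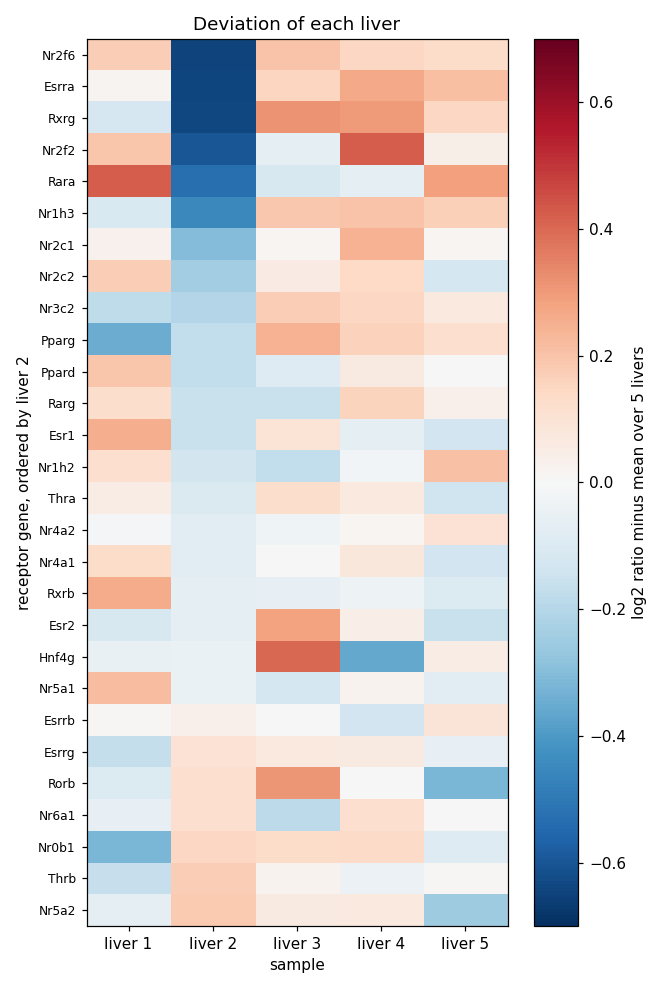
Log2 ratio of each liver minus the mean over the 5 livers for the 28 receptors with values in all of them, ordered from the lowest to the highest value in liver 2; blue is below and red above the gene's mean. Nr2f6, Esrra, Rxrg, Nr2f2 and Rara are the deepest blue in liver 2.

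The proteins and genes that receptors act through were described from lists chosen with earlier results of these data known. Of 18 coactivators tested, 1 was above the reference and 4 below it, with a list median of -0.09. Over all genes tested, 14.2% were above and 12.8% below, or 26.9% in either direction, with a median of -0.02. Ppargc1a, which encodes PGC-1 alpha, the partner of the estrogen-related receptors and PPARs, was the lowest at -0.54 ± 0.07 (SD, n = 5; limma adjusted p = 0.00193), and its log2 ratios in livers 1 to 5 were -0.56, -0.59, -0.51, -0.43 and -0.63. All 5 livers lay within that band. The highest coactivator was Crebbp, the histone acetyltransferase CBP, at 0.77 ± 0.47 (n = 4; adjusted p = 0.0172, and 0.0699 without liver 4). Of 10 corepressors, 3 were above and 2 below. Lcor, a ligand-dependent corepressor, was called higher at 1.20 ± 0.51 (1 probe; adjusted p = 0.00341).

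Target genes of the members had 0 called higher in these lists, where 0.865% of all genes were. Lower calls were 0.416% of all genes. With no minimum ratio, 12.8% of all genes tested were below the reference and 14.2% above it. Of 10 tested LXR targets, 5 were below the reference and 4 of them called lower, with a list median of -0.40 beside -0.02 for all genes. These were the phospholipid transfer protein gene Pltp at -1.71 ± 0.66, Fasn, encoding fatty acid synthase, at -1.38 ± 0.39, the lipogenic regulator Srebf1 at -1.31 ± 0.75 and the sterol transporter gene Abcg8 at -1.09 ± 0.75 (n = 5 each). Markers of some other liver cells stood below the same reference too. Passing below it were 4 of 5 Kupffer cell markers (list median -0.34), 2 of 5 of sinusoidal endothelium (-0.26) and 2 of 5 of bile duct (-0.01). Other cell types differed: 0 of 5 stellate cell markers passed, and 2 of 5 lymphocyte and 1 of 3 tested neutrophil markers passed above it. Their part in the target values was not tested. Abca1, the cholesterol efflux transporter, was the highest at 0.37 ± 0.86 and did not pass (adjusted p = 0.395). Of 7 thyroid hormone targets tested, 4 were below and 1 above, with malic enzyme Me1 (-1.95 ± 0.49), the glucose-6-phosphatase gene G6pc (-1.79 ± 1.03) and Fasn called lower and a list median of -0.64. Gpd2, the mitochondrial glycerophosphate dehydrogenase, was at 0.47 ± 0.15 (limma adjusted p = 0.00455), and its call was lost with the scanner's processed signals and the deposited ratios. Of 6 targets of Nr5a2, 2 were below, and Cyp7a1, which starts classic bile acid synthesis, was called lower at -1.30 ± 0.71 (n = 4). The list ran from Cyp8b1 at -1.43 ± 1.16 (n = 4; limma adjusted p = 0.0676, and between 0.0305 and 0.0435 in 4 alternatives) to Scarb1 at -0.07. In the list for PPAR gamma and delta 3 of 9 were below, with the lipid droplet gene Cidec (-1.82 ± 1.21) and the pyruvate dehydrogenase kinase gene Pdk4 (-1.19 ± 0.46) called lower, and in that for REV-ERB and ROR 1 of 8, the fatty acid elongase gene Elovl3 (-1.65 ± 0.55). The highest of these lists were Lpl at 0.15 and Clock at 0.13, which did not pass. The call of Abcg8 was lost without liver 1, 2, 4 or 5 and with its probes averaged. The calls of Srebf1 and G6pc were lost without liver 1 or 4, that of Cidec without liver 1, 3 or 4 and that of Cyp7a1 without liver 5, with outlier spots kept and with probes averaged.

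For the estrogen-related receptors 2 of 6 tested targets were below the reference, Pdk4 again and the ATP synthase gene Atp5b, and the list median was -0.10, with Idh3a the highest at 0.19. Among 7 tested retinoic acid targets 1 was below, Rarb. Dhrs3, a retinaldehyde reductase, was the lowest at -0.60 ± 0.59 and did not pass (limma adjusted p = 0.0636), though it did with median centring (0.0213) and without liver 3 (0.0336). Of 5 vitamin D genes tested 1 was above, Gc, the plasma vitamin D-binding protein, at 0.41 ± 0.08 (adjusted p = 0.00482), a call lost with the scanner's processed signals (adjusted p = 0.135), with the deposited ratios (0.136) and with median centring (0.0877). Cyp2r1, a vitamin D 25-hydroxylase, was the lowest there at -0.12. Several of these genes belong to more than 1 list, and the lists are described by counts only.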

How the data were processed

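Members and gene lists were chosen with earlier results of these data known. Per the file headers, the deposited scanner files came from Agilent Feature Extraction 11.5.1.1, with build mm8 in the probe annotation, from which no coordinates were used. Median spot and background intensity of both channels, as deposited, was background-corrected (normexp, offset 50) and normalized by loess within each array, giving control and outlier spots a weight of 0. This used limma 3.58.1 (R 4.3.3). The authors' deposited log2 ratios and the deposited log10 ratios and processed signals of the scanner software served as alternatives or checks; the deposited log2 ratios are red over green and are not centred, with array medians between -0.10 and -0.03. RefSeq accessions were named through a RefSeq gene table of GRCm38.p6: 24375 probes matched and 16799 did not. A gene was tested where, on 3 or more arrays, a probe of it was well above background in Cy5 or Cy3, with at least 3 usable values, and its brightest such probe stood for it. Mean log2 ratios were tested against 0 with limma (trend and robust prior) and Benjamini-Hochberg adjustment over all genes tested, and each gene's variance against the fitted prior with an F test. Calls needed an adjusted p below 0.05 and, for higher or lower, a 2-fold ratio. The scripts were tested on simulated data. All 37 members are accounted for, with values per liver for those that passed a test or ranged over at least 1 log2 unit. Of each further list the genes called and its highest and lowest gene are named, except a few genes that are not reported here. Other genes and values per liver were chosen after their values were seen. Promoters came from RefSeq windows of GRCm38.p6. Column names left 0 value columns unmapped.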

Additional observations from a re-analysis of the deposited data

Results flagged for a closer look

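In the 31 members examined with Dixon's ratio, 3 had a liver far from the other 4. All 3 were among the 28 members with 5 values, and the remaining members examined had 4. Chance marks about 1 in 20 groups, and 5.21% of the 13705 genes with 5 values were marked. Esrra stood at -1.13 in liver 2, with the other livers between -0.47 and -0.22. Nr2f6 stood at -0.73 in liver 2, with the others between 0.05 and 0.12. Rxrb stood at -0.18 in liver 1, nearer to 0 than the other livers, which lay between -0.54 and -0.48.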

How the results depend on the processing

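No member changed direction past the threshold in any of the 14 alternative fits. Of the member values, 407 stayed the same, 19 lost the call, 10 gained it and 5 moved. A value stayed the same if it passed again, or if it again did not pass and lay within its SD of the main mean. A value that again did not pass but lay farther away moved. Some members that did not pass changed sign, such as Nr1d2, with means between -0.30 and 0.08. Besides Pparg and Esr1, the gains were Nr2c2 with processed signals (0.0379) and deposited ratios (0.0364), Vdr with deposited ratios (0.0314), and Esr2 (0.0139), Nr1h2 (0.0478) and Rara (0.0243) with median centring, as limma adjusted p. The count of members called higher was 1 in place of 0 with Agilent processed signals and 1 with the deposited log2 ratios (Nr0b1 in each). Members past the variance test were 3 of 24 in place of 0 with the prior variance taken as known, where 1211 of 12014 genes passed. That setting was added after seeing the data. Leaving out each liver in turn gave 3 to 4 members above the reference in place of 5, 4 to 5 below it in place of 6, and 0 to 0 higher, lower or past the variance test; fewer samples entered these fits. Over all genes, 318 were called higher and 157 lower with processed signals and 324 and 155 in the deposited ratios, against 129 and 62, and 7 and 2 when tested against 2-fold itself. Tested probes averaged called 85 higher. Without liver 4, 1188 and 1010 genes in place of 2117 and 1902 stood above and below the reference. Median centring put 220 genes past the variance test in place of 0. The cause of these differences was not tested. No paired analysis was possible because the series has 1 group. Slide and scan could not be fitted as a block, since each array had its own slide and all were scanned on 1 day. Probes near background, such as that of Nr4a2 and, in the reference channel, that of Nr0b1, limit what can be read from a ratio.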

Other observations

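Of 12 further nuclear receptors, 11 were tested, 3 stood below the reference and 0 above it, with a median of -0.26. Of all genes tested, 12.8% stood below it and 14.2% above, with a median of -0.02. Ppara, the hepatic fatty acid receptor, had log2 ratios of -0.72, -1.78, -0.41, -0.28 and -0.59 in livers 1 to 5 (mean -0.75 ± 0.60, limma adjusted p = 0.0345), lowest in liver 2, and its call was lost without liver 1 or 5 (adjusted p = 0.0921 and 0.0764). Without liver 2 its mean was -0.50 (adjusted p = 0.0140). Nr1i2 (PXR), a xenobiotic receptor, was at -0.73, -0.63, -0.24, -0.38 and -0.70 (mean -0.54 ± 0.21, adjusted p = 0.0048). Rarb, retinoic acid receptor beta, was at -0.32 ± 0.24 (adjusted p = 0.0355) and below 0 in 4 of 5 livers. Nr0b2 (SHP), the corepressor-like bile acid target, was at -0.98 in liver 2 and between -0.34 and 0.19 in the others, and Nr1d1 (REV-ERB alpha) at -0.94 in liver 2 and between -0.65 and 0.30 in the others; neither passed (adjusted p = 0.191 and 0.225). Nr1i3 (CAR) was the highest at 0.25 ± 0.82 over the 3 livers with usable spots, from -0.67 in liver 2 to 0.89 in liver 4 (adjusted p = 0.598).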
